A study of Mus musculus with 4 samples.

Results

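Endothelial cells with Lrat or Col13a1 mRNA, given the name capillary by their selection rule, were examined in neonatal mouse ear skin. Whether they are capillary cells was not tested. The cells were chosen by the mRNA counts themselves: a cell was taken when it had 500 or more detected genes, at most 10% mitochondrial unique molecular identifiers (UMIs) and a summed count of 3 or more UMIs of Lrat and Col13a1. It also had to lie under 7 upper limits: Car4, Timp4 and Aqp7 under 3 UMIs, Esm1, Kcne3 and Pgf under 5, Ackr1 and Selp under 3, Cxcl12 and Unc5b under 4, Sele under 2, Prox1, Mmrn1 and Reln under 3, and Mki67 and Top2a under 3. This gave 202 of 3750 kept cells, 73 of 1500 in library 1 and 129 of 2250 in library 2. They made up 4.87% of library 1 (exact 95% binomial interval 3.83% to 6.08%) and 5.73% of library 2 (4.81% to 6.78%), a mean of 5.30% ± 0.613 (SD, n = 2). The intervals cover counting error only, and a gate on raw UMIs depends on the depth of each cell.

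The cells came from ears of C57BL/6 mice at postnatal day 8 and were live CD31-positive cells with the Rtom reporter, which is switched on by Cdh5CreERT2, a tamoxifen-inducible Cre under an endothelial cadherin promoter. The 2 libraries are biological replicates in the labels, which do not say how many animals each holds, and every p-value rests on them. Each library was read for mRNA (10x 3′ version 3 chemistry) and for oligonucleotide-tagged antibodies on the same cells. There is 1 age and no comparison of treatments, so each comparison sets the Lrat/Col13a1 cells against other cells of the same 2 libraries. These are 82 capillary cells with 3 or more UMIs of Car4, Timp4 and Aqp7 (Car4 cells, 45 and 37 in libraries 1 and 2) and 138 tip cells with 5 or more UMIs of Esm1, Kcne3 and Pgf (50 and 88). Both of these classes lay under the other upper limits, with no limit on Lrat and Col13a1. Artery-gated cells (543, by Cxcl12 and Unc5b) and vein-gated cells (69, by Ackr1 and Selp) took part in the same fit and are quoted for their levels.

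Capillary endothelium is specialised by tissue. In heart, muscle and fat it takes up fatty acids through a programme that includes CD36, fatty acid binding proteins and the transcription factors Meox2 and Tcf15, whereas fenestrated and other permeable capillaries and venules carry the diaphragm protein PLVAP. Lrat encodes lecithin retinol acyltransferase, which stores retinol (vitamin A) as retinyl esters and is best known from hepatic stellate cells and the retinal pigment epithelium, and Col13a1 encodes a transmembrane collagen found at cell adhesions. Tip cells lead new vessel sprouts.

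In the GRCm38 genome (GENCODE vM21), Lrat lies at chr3:82892579-82903973 and Col13a1 at chr10:61838236-61979108, both protein-coding and on the minus strand. Their promoters, 300 bases around the start (RefSeq, GRCm38.p6), are shown because these 2 genes define the cells. Capitals mark the forkhead core motif TGTTTA, searched on both strands.
Lrat promoter, chr3:82903925-82904224, minus strand: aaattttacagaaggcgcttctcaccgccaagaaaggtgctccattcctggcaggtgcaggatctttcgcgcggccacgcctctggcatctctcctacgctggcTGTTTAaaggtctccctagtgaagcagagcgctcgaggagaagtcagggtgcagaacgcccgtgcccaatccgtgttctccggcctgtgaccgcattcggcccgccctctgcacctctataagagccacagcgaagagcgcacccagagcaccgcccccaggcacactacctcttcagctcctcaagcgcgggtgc
Col13a1 promoter, chr10:61979059-61979358, minus strand: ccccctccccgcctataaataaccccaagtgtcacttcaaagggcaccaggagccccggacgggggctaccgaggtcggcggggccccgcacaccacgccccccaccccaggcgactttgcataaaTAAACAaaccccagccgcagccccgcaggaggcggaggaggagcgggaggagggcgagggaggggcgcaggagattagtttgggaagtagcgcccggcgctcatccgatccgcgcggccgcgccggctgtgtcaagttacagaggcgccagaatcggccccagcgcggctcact
Each promoter held 1 match, and 13.4% of 32851 promoters of that length held at least 1. The ETS core CGGAAG (16.9% of promoters), the nuclear receptor half-site AGGTCA (16.3%) and the SOX motif AACAAT (10.7%) had no match in either window. A match describes the letters only.

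Sequencing depth differed little between the Lrat/Col13a1 cells of the libraries, with medians of 8886 and 8175 UMIs per cell, against 7635 and 6846 in Car4 cells and 9146 and 10977.5 in tip cells. The libraries held 15989249 and 26675353 UMIs over all 1745 and 2877 barcodes, and no member's barcode recurred among kept cells of the other library. All 14 endothelial identity genes were detected in the Lrat/Col13a1 cells of both libraries, while Ptprc, the leukocyte gene for CD45, had no UMI. Summed levels of 13 pericyte and smooth muscle markers were 93.5 and 122 CPM (UMIs scaled to a total of 1000000) in Lrat/Col13a1 cells of libraries 1 and 2, against 1991 and 85.7 CPM in Car4 cells and 227 and 292 CPM in tip cells. Among these classes the Car4 cells of library 1 thus stood apart, and 8 of their 45 cells carried 3 or more UMIs of Rgs5, Pdgfrb, Kcnj8 and Abcc9. Artery-gated cells, in the same fit, had 1406 and 1633 CPM of the list, and 38 of 258 and 41 of 285 carried as many UMIs. Vein-gated cells had 691 and 172 CPM. Erythroid and platelet markers summed to 50.8 and 1175 CPM in Lrat/Col13a1 cells, 162 and 16.5 CPM in Car4 cells and 132 and 7429 CPM in tip cells, so that library 2 of the tip cells was high. Among Lrat/Col13a1 cells with UMIs of either only Xist or only Y-linked genes, 47 had Xist and 19 had Y-linked genes in library 1, and 48 and 55 in library 2. The part of sex in the results was not tested.

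The rule's own genes and the markers proposed with it are given as a description, without a test. Lrat averaged 502 and 410 TMM-scaled CPM (scaled for library composition; used for all levels per class that follow) in Lrat/Col13a1 cells of libraries 1 and 2, against 2.69 and 41.6 CPM in Car4 cells and 138 and 99.2 CPM in tip cells. Col13a1 had 154 and 209 CPM, against 21.5 and 34.7 CPM in Car4 cells and 99.4 and 119 CPM in tip cells. Tip cells thus carried more of both genes than Car4 cells did in each library. Nostrin, which binds endothelial nitric oxide synthase and directs its traffic, had 68.4 and 44.7 CPM in Lrat/Col13a1 cells, 16.1 and 20.8 CPM in Car4 cells and 40.2 and 33.4 CPM in tip cells. Slc14a1, the urea transporter known from erythrocytes and the descending vasa recta of the kidney, was lower in Lrat/Col13a1 cells (106 and 143 CPM) than in tip cells (170 and 217 CPM) and was near absent from Car4 cells (0 and 6.94 CPM). At least 1 Slc14a1 UMI was seen in 38.4% and 44.2% of Lrat/Col13a1 cells, 0% and 2.70% of Car4 cells and 42.0% and 46.6% of tip cells. With each cell thinned to 4000 UMIs, which left out 2 and 5 Lrat/Col13a1 cells, 5 and 4 Car4 cells and 1 and 2 tip cells, the shares were 26.8% and 28.2%, 0% and 3.03%, and 34.7% and 36.0%. Plvap had 1685 and 1809 CPM in Lrat/Col13a1 cells, against 761 and 1104 CPM in Car4 cells and 1067 and 1105 CPM in tip cells, and vein-gated cells were as high, with 1786 and 1546 CPM. The markers Lrat, Col13a1, Nostrin and Plvap were therefore highest in the gated cells among the 2 capillary classes and the tip cells, and Slc14a1 was not.

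**Figure D1:**
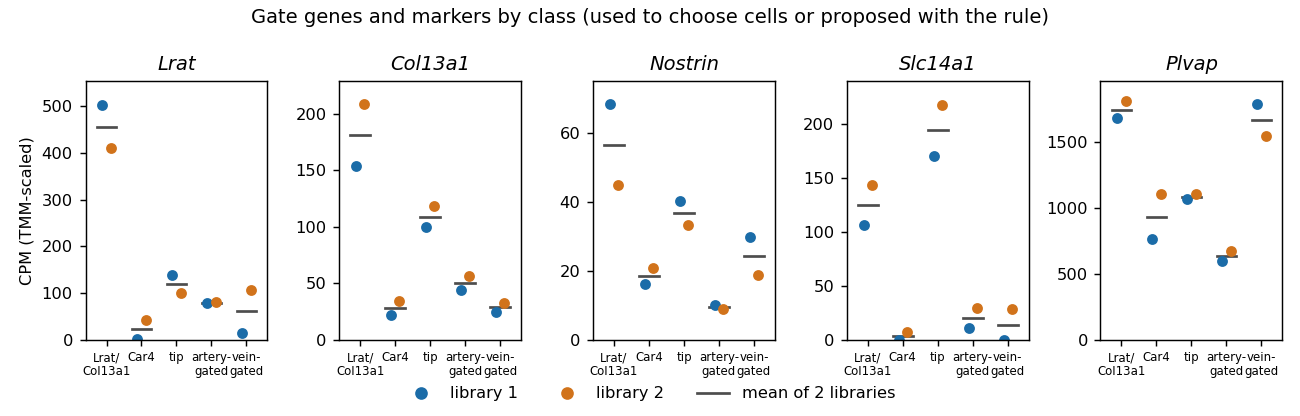
Levels of the 2 gate genes and 3 markers in TMM-scaled CPM (y axis, from 0) for the 5 classes (x axis); points are the summed cells of library 1 (blue) and library 2 (orange), bars their mean. Lrat, Col13a1 and Nostrin are highest in Lrat/Col13a1 cells, Slc14a1 is highest in tip cells, and Plvap is 1685 and 1809 CPM in Lrat/Col13a1 cells beside 1786 and 1546 CPM in vein-gated cells.

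The threshold of 3 UMIs cuts a continuous range. Under the same limits, 31 and 51 cells of libraries 1 and 2 had exactly 2 UMIs of Lrat and Col13a1 and stayed outside, while 10 and 43 cells with exactly 3 were inside. Plvap was 2010 and 1770 CPM at 3 UMIs, against 1713 and 1489 CPM at 2 UMIs and 709 and 702 CPM in the 275 and 319 cells with none. Slc14a1 was 24.97 and 132 CPM at 3 UMIs, against 88.0 and 125 CPM at 2 UMIs and 20.5 and 26.5 CPM at none. Cells just outside the gate were therefore closer to those just inside than to cells without the 2 genes for Plvap, and Cd36, which encodes the fatty acid translocase, showed no such order, with 699 and 509 CPM at 3 UMIs, 561 and 467 CPM at 2 and 620 and 503 CPM at none. In all, 616 kept cells had 3 or more UMIs of the 2 genes, and 414 of them failed another limit. These exclusions overlap: 158 cells were over the Sele limit, 150 over that for dividing cells, 144 over the artery, 104 over the tip, 58 over the vein, 18 over the Car4 and 11 over the lymphatic limit.

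**Figure D2:**
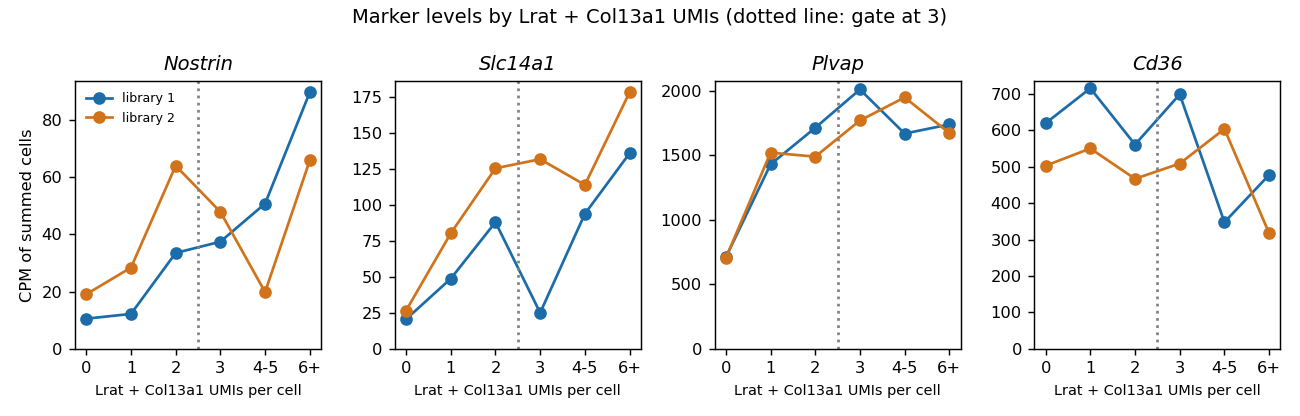
CPM of summed cells (y axis) by the number of Lrat and Col13a1 UMIs in a cell (x axis) for cells under all other limits, in library 1 (blue) and library 2 (orange); the dotted line marks the gate. Plvap is 709 and 702 CPM at 0 UMIs and 1429 CPM or more from 1 UMI upward in both libraries, and no step appears at the gate.

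Within the Lrat/Col13a1 cells, 109 had UMIs of both genes, 66 only of Lrat and 27 only of Col13a1. Cells with both were deeper (medians of 10533 and 8640 UMIs in libraries 1 and 2) than cells with Lrat only (8176.5 and 7281.5), so that the split follows depth as well. Between cells with both genes and cells with Lrat only, edgeR's quasi-likelihood test with Benjamini-Hochberg adjustment called 0 of 6751 genes (0%), with 295 at an unadjusted p under 0.05, and DESeq2 also called 0. Without a filter on low counts 22 genes were called. Cells with Col13a1 only numbered 6 in library 1 and were not tested.

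Over the 10 sums of 5 classes and 2 libraries, Lrat and Col13a1 varied together (Pearson's r of log2 CPM 0.85), as a description, since both define the class. The genes most like Lrat by the same measure were Pcp4l1 (r = 0.96), Eri3 (0.90), Mapk12 (0.90), Hoxd8 (0.89) and Fyn (0.89). Those most like Col13a1 were Noa1 (0.94), Tubg1 (0.94), Zeb1 (0.94), Eif2s1 (0.94) and Vasp (0.93). These are the highest values among genes with a mean log2 CPM of 4 or more, over only 10 sums. The gate itself set the Lrat and Col13a1 levels of the class, so these likenesses are a description and no independent result. The sums of a library hold different cells of that same library.

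Against Car4 cells, 160 of 7961 genes tested passed an adjusted p of 0.05 in edgeR's quasi-likelihood test with the library as a block (2.01%). Of these, 38 were higher in Lrat/Col13a1 cells (0.477%) and 122 lower (1.53%). The 18 genes of the gates and the 3 further markers were left out of the test, but genes that follow Car4, Timp4 and Aqp7 in a cell differ between the classes by the way these were drawn. The median log2 change of all genes tested was 0.00. The number called was 93 with DESeq2, 78 without the library block, 74 with cells thinned to 4000 UMIs and 27, 56, 42 and 165 when library 1 or 2 of the Lrat/Col13a1 cells or library 1 or 2 of the Car4 cells was left out.

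Of 18 tested genes of fatty acid and glycerol handling, 0 rose and 8 fell against Car4 cells (2.01% of all genes passed), with a median log2 change of −0.65. Genes that follow Car4, Timp4 and Aqp7 differ by the way the classes were drawn, so these falls describe the gate as well as the cells. They are no independent result. Fabp4, a cytoplasmic fatty acid binding protein, had 1676 and 1992 CPM in Lrat/Col13a1 cells of libraries 1 and 2, against 33639 and 24409 CPM in Car4 cells. The log2 change was −3.95 ± 0.20 (SE, edgeR adjusted p = 5.6e-08). Fabp4 was 2933 and 3246 CPM in tip cells, so that Car4 cells, not the Lrat/Col13a1 cells, were far from these classes, while vein-gated cells had 19205 and 12538 CPM. Cd36 had 442 and 477 CPM in Lrat/Col13a1 cells and 1913 and 1780 CPM in Car4 cells (log2 change −2.01 ± 0.15, edgeR adjusted p = 4.5e-06). Tcf15 had 23.2 and 33.3 CPM, against 428 and 236 CPM (−3.45 ± 0.30, edgeR adjusted p = 1.6e-05). Fabp5, a second binding protein, had 311 and 467 CPM, against 2637 and 1426 CPM (−2.33 ± 0.24, edgeR adjusted p = 0.00013). Each of these genes was lower in both libraries. Lpl, the lipoprotein lipase that frees fatty acids from plasma triglycerides, had 0 and 4.39 CPM in Lrat/Col13a1 cells and 135 and 59.0 CPM in Car4 cells (−5.08 ± 0.59, edgeR adjusted p = 0.00036). Fabp4, Cd36, Tcf15, Fabp5 and Lpl all passed in each alternative that gave a value, the 4 fits that left out 1 library of either class included. The water channel Aqp1 had 709 and 907 CPM, against 1028 and 1634 CPM (−0.70 ± 0.17, edgeR adjusted p = 0.046), and no longer passed without library 1 or 2 of the Lrat/Col13a1 cells or without either of the Car4 cells, the largest adjusted p being 0.33 without library 2 of the Car4 cells.

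Of 14 tested genes of retinoid handling, 0 rose and 2 fell against Car4 cells (2.01% of all genes passed), with a median of −0.43. The 2 were Lpl, which the list also holds, and Dhrs3. Dhrs3, which reduces retinal to retinol, had 12.9 and 16.7 CPM in Lrat/Col13a1 cells, against 67.3 and 41.6 CPM in Car4 cells (−1.79 ± 0.41, edgeR adjusted p = 0.038) and 9.56 and 15.8 CPM in tip cells. The Dhrs3 call ended without any 1 of the 4 sums, with an adjusted p of up to 0.42 without library 1 of the Car4 cells. Rbp7, an adipose and capillary retinol binding protein, had 830 and 763 CPM in Lrat/Col13a1 cells, 1418 and 961 CPM in Car4 cells and 157 and 356 CPM in tip cells. It rose against tip cells (1.62 ± 0.33, edgeR adjusted p = 0.019), not without library 1 or 2 of the Lrat/Col13a1 cells or library 1 of the tip cells (adjusted p = 0.20, 0.14 and 0.29), and the difference from Car4 cells did not pass (−0.60 ± 0.31, edgeR adjusted p = 0.48). Rarres1, named for its response to retinoic acid, had 5.16 and 5.26 CPM in Lrat/Col13a1 cells and 47.8 and 36.2 CPM in tip cells (−2.92 ± 0.48, edgeR adjusted p = 0.0068), with adjusted p = 0.090 and 0.21 without library 1 or 2 of the Lrat/Col13a1 cells and 0.076 without library 1 of the tip cells. The receptor genes Rara, Rarg, Rxra and Rxrb were between 9.04 and 38.7 CPM in Lrat/Col13a1 cells and passed in neither comparison, nor did the retinol dehydrogenase genes Rdh11 and Rdh14.

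**Figure D3:**
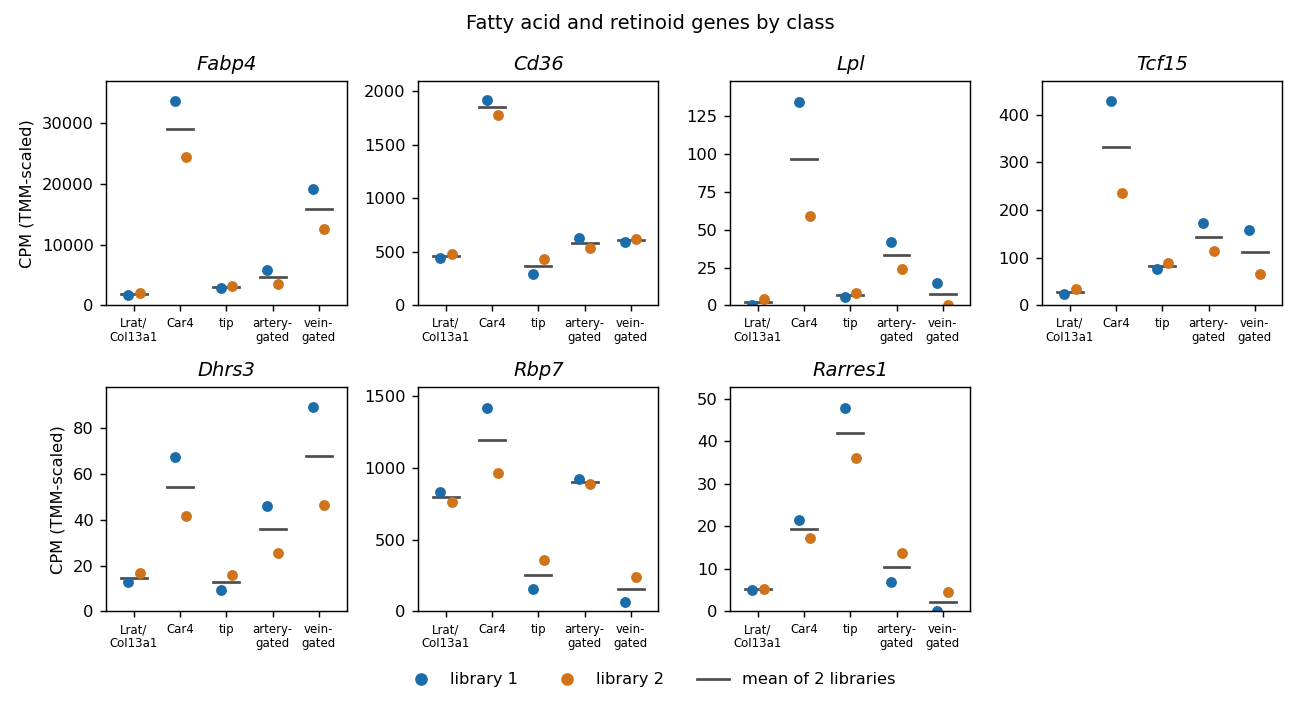
Levels of 4 fatty acid and 3 retinoid genes in TMM-scaled CPM (y axes, from 0) for the 5 classes (x axes); points are library 1 (blue) and library 2 (orange), bars their mean. The 4 fatty acid genes are highest in Car4 cells in both libraries, and Rarres1 is highest in tip cells.

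Some junction, caveola and capillary genes fell against Car4 cells, and most members of each list did not pass (2.01% of all genes passed). Of 19 tested junction genes, 0 rose and 5 fell (median −0.40). Cldn5, the claudin of tight endothelial barriers, had 535 and 766 CPM in Lrat/Col13a1 cells and 2607 and 2370 CPM in Car4 cells (log2 change −1.96 ± 0.15, edgeR adjusted p = 4.2e-06), and 1088 and 1226 CPM in tip cells. Cdh5, the cadherin of endothelial adherens junctions, differed less, with 883 and 960 CPM against 1243 and 1371 CPM (−0.50 ± 0.10, edgeR adjusted p = 0.018). Of 13 tested genes of caveolae, diaphragms and vesicle traffic, 0 rose and 3 fell (median −0.16), all of the caveolar coat or neck: Cavin2 had 597 and 640 CPM, against 1544 and 1294 CPM (−1.19 ± 0.15, edgeR adjusted p = 0.00076). Ehd2 had 260 and 290 CPM against 533 and 420 CPM, and Cavin1 had 398 and 454 CPM against 734 and 694 CPM. Plvap, the diaphragm protein that was not tested, ran the other way in both libraries. Of 20 tested capillary genes, 0 rose and 6 fell (median −0.67), among them Btnl9, with 82.6 and 106 CPM against 266 and 312 CPM (−1.60 ± 0.21, edgeR adjusted p = 0.00078). As for the fatty acid genes, the falls of the capillary list describe the gate as well as the cells and are no independent result. Against tip cells 1 capillary gene rose and 4 fell (median −0.28), where 1.87% of all genes passed. The list summed to 13216 and 14242 CPM in Lrat/Col13a1 cells, the lowest of the 5 classes in each library. Tip cells had 15854 and 16640 CPM, artery-gated cells 17558 and 14913 CPM and vein-gated cells 25026 and 21620 CPM. The list thus does not establish the name capillary for these cells. Cldn5, Cavin2 and Btnl9 passed in all alternatives that gave a value, whereas Cdh5, Ehd2 and Cavin1 did not pass without library 1 or 2 of the Lrat/Col13a1 cells or library 1 of the Car4 cells (largest adjusted p = 0.20 for Cdh5, 0.28 for Ehd2 and 0.27 for Cavin1).

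The receptor genes Ednrb and Nrp2 fell. Ednrb, the endothelin B receptor, had 40.03 and 79.8 CPM in Lrat/Col13a1 cells and 239 and 239 CPM in Car4 cells (log2 change −1.93 ± 0.26, edgeR adjusted p = 0.0013). Nrp2, a coreceptor for VEGF-C and semaphorins, had 73.6 and 78.9 CPM, against 202 and 215 CPM (−1.45 ± 0.18, edgeR adjusted p = 0.00058). Both were lower in each library and passed in every fit without 1 library of either class. Of 17 tested VEGF and angiopoietin genes, 0 rose and 2 fell against Car4 cells (2.01% of all genes passed), with a median of −0.14. None of the 16 Notch, 27 TGF-beta and BMP, and 11 Wnt genes tested passed. The VEGF receptor gene Kdr passed in neither comparison, with 585 and 589 CPM in Lrat/Col13a1 cells, 573 and 562 CPM in Car4 cells and 688 and 823 CPM in tip cells, beside 412 and 443 CPM in artery-gated and 317 and 462 CPM in vein-gated cells (edgeR adjusted p = 0.95 against Car4 cells and 0.25 against tip cells).

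Further large falls were those of Cyp4b1, a cytochrome P450 (0 and 4.39 CPM against 135 and 48.6 CPM), Tppp3, which binds tubulin (6.46 and 2.63 CPM against 80.7 and 38.2 CPM), and Ablim3, an actin-binding LIM protein (16.8 and 15.8 CPM against 167 and 184 CPM). All 3 passed in each alternative that gave a value, with log2 changes of −5.18 ± 0.70, −3.74 ± 0.41 and −3.41 ± 0.32 (edgeR adjusted p = 0.0012, 0.00024 and 4.8e-05). Other falls were uneven between libraries. Rgs5, a pericyte gene, had 5.16 and 24.6 CPM in Lrat/Col13a1 cells, against 1248 and 31.2 CPM in Car4 cells. Its log2 change of −4.98 ± 1.02 (edgeR adjusted p = 0.020) was −0.87 and no longer passed without library 1 of the Car4 cells. Rgs5 is among the genes that define the cells with 3 or more pericyte UMIs. Once those cells were left out, the low-count filter removed Rgs5 and it had no value. The Rgs5 call also ended without library 1 or 2 of the Lrat/Col13a1 cells (edgeR adjusted p = 0.37 and 0.083). Acta2, the smooth muscle actin, had 0 and 7.89 CPM, against 218 and 0 CPM, and without those cells its log2 change turned to 2.02 (edgeR adjusted p = 0.92). Without library 1 of the Car4 cells it was 5.19 (edgeR adjusted p = 0.87), against −4.49 (SE 1.053) with all cells (adjusted p = 0.042), and the call also ended without library 1 or 2 of the Lrat/Col13a1 cells (0.40 and 0.098). Eln, elastin, had 89.1 and 36.8 CPM, against 847 and 90.2 CPM. Its log2 change was −2.97 without the pericyte-marker cells (edgeR adjusted p = 0.0040), against −2.74 ± 0.52 with them (adjusted p = 0.013), and −1.07 without library 1 of the Car4 cells (adjusted p = 0.67). The Eln call also ended without library 1 or 2 of the Lrat/Col13a1 cells (edgeR adjusted p = 0.26 and 0.11) and without the library block (0.12). Fbln5, a fibulin of elastic fibres, had 32.3 and 28.1 CPM, against 274 and 93.7 CPM, and passed in every fit without 1 library (−2.57 ± 0.32, edgeR adjusted p = 0.00061). Igfbp5, an IGF binding protein, had no UMI in Lrat/Col13a1 cells of either library, against 43 and 2 UMIs in Car4 cells, at least 29.9-fold lower in library 1 at a floor of 3 UMIs per library. Its call ended without library 1 of the Car4 cells (edgeR adjusted p = 0.39) or of the Lrat/Col13a1 cells (0.072).

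Fewer genes were higher in Lrat/Col13a1 cells than in Car4 cells. Pcp4l1, a small calmodulin-binding IQ motif protein, had 356 and 453 CPM in Lrat/Col13a1 cells, 70.0 and 121 CPM in Car4 cells and 247 and 268 CPM in tip cells. The log2 change was 2.11 ± 0.25 against Car4 cells (edgeR adjusted p = 0.00051). Among the rises against Car4 cells named here, it was the only one that passed in each alternative that gave a value. A group of 3 neighbouring Hoxd genes, which encode positional homeobox factors, were higher. Hoxd9 had 243 and 246 CPM in Lrat/Col13a1 cells, against 72.6 and 118 CPM in Car4 cells and 74.6 and 112 CPM in tip cells. Its log2 changes of 1.38 ± 0.22 and 1.35 ± 0.18 both passed (edgeR adjusted p = 0.0039 and 0.0027). Hoxd10 had 106 and 82.4 CPM, against 16.1 and 10.4 CPM in Car4 cells and 38.2 and 60.3 CPM in tip cells, and passed against Car4 cells (2.74 ± 0.46, edgeR adjusted p = 0.0068) and not tip cells (0.85 ± 0.27, adjusted p = 0.16). Hoxd8 had 203 and 203 CPM, against 59.2 and 125 CPM in Car4 cells (1.19 ± 0.24, edgeR adjusted p = 0.017). Against Car4 cells the 3 Hoxd calls ended without library 1 of the Car4 cells (edgeR adjusted p = 0.11 for Hoxd9, 0.066 for Hoxd10 and 0.37 for Hoxd8) and without library 1 of the Lrat/Col13a1 cells (0.069, 0.069 and 0.17), and Hoxd8 also without library 2 (0.10).

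Ptn encodes pleiotrophin, a secreted heparin-binding growth factor, and had the largest rise of the named genes in both comparisons. It had 49.1 and 46.5 CPM in Lrat/Col13a1 cells of libraries 1 and 2, against 5.38 and 3.47 CPM in Car4 cells and 3.82 and 5.56 CPM in tip cells. The Car4 cells held 3 Ptn UMIs in all, against 91 in the Lrat/Col13a1 cells, a ratio of 10.5 with a counting interval of 3.47 to 51.6. Against tip cells the log2 change was 3.16 ± 0.45 (edgeR adjusted p = 0.0032), with an adjusted p of 0.052 without library 1 of the tip cells. The call against Car4 cells (edgeR adjusted p = 0.0096) ended without library 1 of the Car4 cells (0.27). Slco2a1, the prostaglandin transporter, had 119 and 144 CPM in Lrat/Col13a1 cells, against 18.8 and 52.1 CPM in Car4 cells and 49.7 and 70.5 CPM in tip cells, with log2 changes of 1.96 ± 0.36 and 1.09 ± 0.25 (edgeR adjusted p = 0.010 and 0.035). Npnt, nephronectin, a basement membrane ligand of integrin alpha8 beta1, had 56.8 and 62.3 CPM against 10.8 and 13.9 CPM in Car4 cells (2.28 ± 0.50, edgeR adjusted p = 0.031). Gap43, known from growing axons, had 63.3 and 55.3 CPM against 13.5 and 13.9 CPM (2.10 ± 0.36, edgeR adjusted p = 0.0071). Each of these genes was higher in both libraries. Vein-gated cells were as high or higher, with 201 and 103 CPM of Ptn and 124 and 145 CPM of Slco2a1. They had 59.5 and 70.1 CPM of Npnt and 64.5 and 60.7 CPM of Gap43. Artery-gated cells had 55.5 and 25.3 CPM of Ptn and 29.7 and 19.3 CPM of Slco2a1. In the same cells Npnt had 83.0 and 72.0 CPM and Gap43 had 55.5 and 53.9 CPM. Against Car4 cells drawn by their own gate only, Slco2a1, Npnt and Gap43 no longer passed. Npnt also did not pass at a threshold of 5 UMIs, with cells thinned to 4000 UMIs or without the library block. Over the alternatives that kept both libraries and the block, the log2 change lay between 0.40 and 2.72 for Npnt. For Gap43 it lay between 0.88 and 2.43. The calls of Slco2a1, Npnt and Gap43 ended without library 1 of the Lrat/Col13a1 cells (edgeR adjusted p = 0.069, 0.17 and 0.069 against Car4 cells) and without library 1 of the Car4 cells (0.23, 0.32 and 0.15), those of Slco2a1 and Npnt also without library 2 of the Lrat/Col13a1 cells (0.093 and 0.14) and that of Npnt without library 2 of the Car4 cells (0.11). Against tip cells the Slco2a1 call ended in each of the 4 such fits (up to 0.45 without library 2 of the Lrat/Col13a1 cells).

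**Figure D4:**
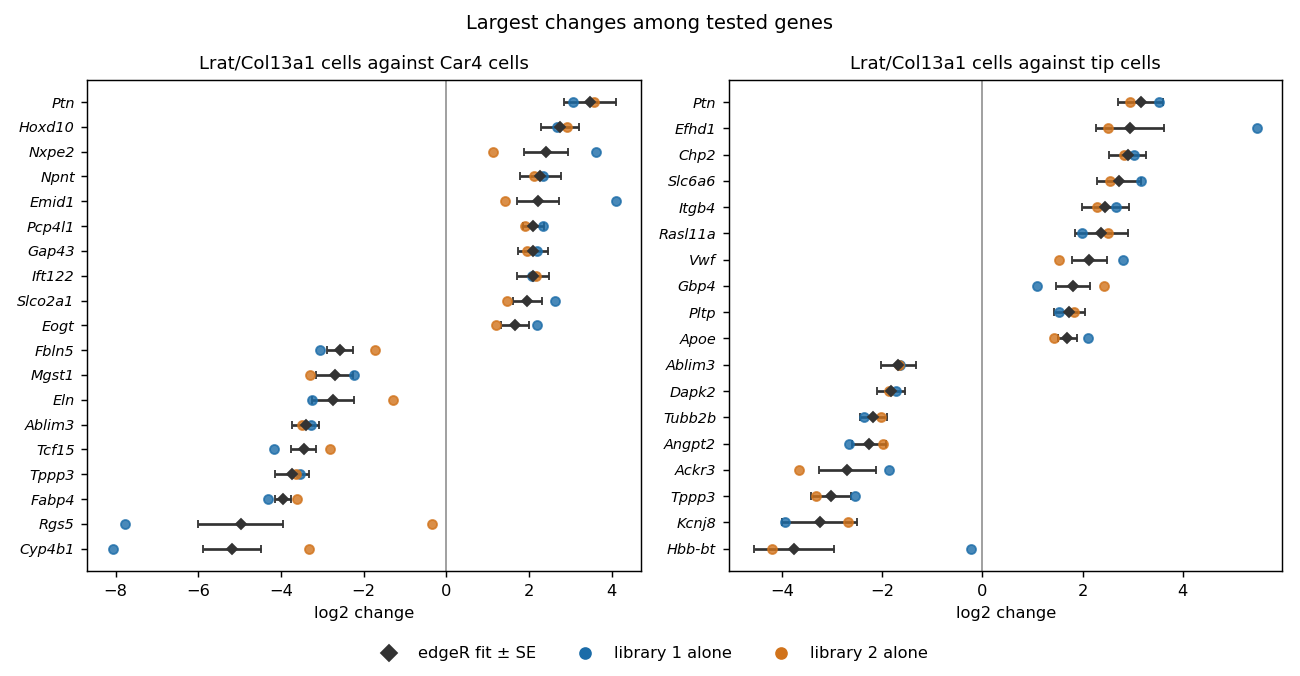
Log2 change (x axis) of the 10 largest rises and of large falls by the naming rule against Car4 cells (left) and tip cells (right); diamonds with bars are the edgeR estimate ± SE, and circles are library 1 (blue) and library 2 (orange) alone. Igfbp5 and S100a4, with 0 and 2 UMIs in Lrat/Col13a1 cells, are left out; Rgs5 and Hbb-bt lie near 0 in 1 of the libraries.

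Against tip cells, 149 of 7961 genes passed (1.87%), 49 higher (0.616%) and 100 lower (1.26%) in Lrat/Col13a1 cells, with a median log2 change of 0.01 over all genes tested. The number was 74 with DESeq2, 37 without the library block and 66 at 4000 UMIs per cell. It was 21 or 25 without library 1 or 2 of the Lrat/Col13a1 cells and 29 or 42 without library 1 or 2 of the tip cells. Tip cells were drawn for 5 or more UMIs of Esm1, Kcne3 and Pgf and Lrat/Col13a1 cells for fewer, so that genes that follow these 3 in a cell differ between the classes by the way these were drawn. The 2 comparisons share the Lrat/Col13a1 cells, so that their results are not independent.

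Of 29 tested tip and sprouting genes, 0 rose and 13 fell (1.87% of all genes passed), with a median of −0.66. This describes the gate as well as the cells and is no independent result. Angpt2, the Tie2 ligand of remodelling and sprouting vessels, had 12.9 and 18.4 CPM in Lrat/Col13a1 cells, against 84.1 and 74.2 CPM in tip cells (log2 change −2.26 ± 0.34, edgeR adjusted p = 0.0045). Car4 cells lay between, with 53.8 and 59.0 CPM. Cxcr4, the chemokine receptor of tip and arterial cells, had 11.6 and 12.3 CPM, against 44.0 and 41.7 CPM in tip cells (−1.81 ± 0.36, edgeR adjusted p = 0.021). Ackr3, the scavenging receptor for the same chemokine, had 15.5 and 3.51 CPM, against 57.4 and 50.1 CPM (−2.69 ± 0.57, edgeR adjusted p = 0.023). Each of the 3 genes was lower in both libraries. Kit had 16.8 and 16.7 CPM, against 72.7 and 72.3 CPM (−2.10 ± 0.34, edgeR adjusted p = 0.0059). Fscn1, the filopodial actin bundler fascin, had 364 and 282 CPM, against 675 and 596 CPM (−0.98 ± 0.16, edgeR adjusted p = 0.0068). Tubb2b, a tubulin, had 19.4 and 21.9 CPM, against 101 and 90.9 CPM (−2.18 ± 0.27, edgeR adjusted p = 0.0017). Tubb2b and Tppp3 (6.46 and 2.63 CPM, against 40.2 and 30.6 CPM) passed in each alternative that gave a value. The largest adjusted p without 1 library was 0.15 for Angpt2, 0.32 for Cxcr4, 0.32 for Ackr3, 0.26 for Kit and 0.22 for Fscn1, each without library 2 of the Lrat/Col13a1 cells. Without library 1 of these cells it was 0.070 for Angpt2, 0.16 for Cxcr4, 0.12 for Ackr3 and 0.064 for Kit. Without library 1 of the tip cells it was 0.13 for Cxcr4, 0.067 for Ackr3, 0.066 for Kit and 0.11 for Fscn1, and without library 2 of the tip cells 0.20 for Cxcr4 and 0.30 for Ackr3.

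Basement membrane genes followed in part. Of 23 tested, 1 rose and 4 fell against tip cells (1.87% of all genes passed), with a median of −0.18. The laminin chain genes Lamb1 and Lama4 had 143 and 188 CPM and 267 and 314 CPM in Lrat/Col13a1 cells, against 371 and 375 CPM and 489 and 495 CPM in tip cells (log2 changes −1.17 ± 0.19 and −0.76 ± 0.14, edgeR adjusted p = 0.0062 and 0.010). Itgb4, the beta4 integrin chain that binds laminin, rose, with 27.1 and 28.9 CPM against 3.82 and 5.56 CPM (2.46 ± 0.47, edgeR adjusted p = 0.013). Artery-gated cells had 68.6 and 66.4 CPM of Itgb4 and vein-gated cells 107 and 84.1 CPM. Of 13 tested collagen genes, Col18a1 alone passed, with 130 and 118 CPM against 208 and 218 CPM (−0.79 ± 0.15, edgeR adjusted p = 0.012). The direction was the same in both libraries for all 4 genes. Their calls ended without library 1 or 2 of the Lrat/Col13a1 cells (edgeR adjusted p = 0.086 to 0.31), without library 1 of the tip cells (0.093 to 0.13) and, apart from Lamb1, without library 2 of the tip cells (0.10 to 0.19).

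Genes higher than in tip cells included shear-responsive and venous ones. Of 20 tested genes of the flow response, 3 rose and 1 fell (1.87% of all genes passed), with a median of 0.19. Klf2 and Klf4 encode transcription factors induced by laminar flow. Klf4 had 345 and 350 CPM in Lrat/Col13a1 cells, against 107 and 182 CPM in tip cells and 258 and 441 CPM in Car4 cells, with a log2 change against tip cells of 1.27 ± 0.18 (edgeR adjusted p = 0.0031). Klf2 had 775 and 1036 CPM, against 304 and 598 CPM in tip cells and 874 and 1083 CPM in Car4 cells (1.01 ± 0.19, edgeR adjusted p = 0.012). Artery-gated cells had 533 and 681 CPM of Klf4 and vein-gated cells 479 and 607 CPM. Neither Klf4 nor Klf2 passed against Car4 cells (edgeR adjusted p = 0.97 for Klf4 and 0.88 for Klf2). Slc9a3r2 also rose (0.56 ± 0.12, edgeR adjusted p = 0.025), and Klf6 fell, with 235 and 315 CPM against 528 and 495 CPM (−0.90 ± 0.21, edgeR adjusted p = 0.040). Fos, an immediate-early gene, was higher than in tip cells, with 1593 and 1816 CPM against 931 and 1183 CPM (0.70 ± 0.12, edgeR adjusted p = 0.0083). The 21 immediate-early and stress genes tested summed to 9070 and 13405 CPM in Lrat/Col13a1 cells of libraries 1 and 2. In tip cells they summed to 7797 and 10791 CPM. The part of this library difference in these results was not tested. Klf4 passed in all 4 fits without 1 library. Its call ended without the library block (edgeR adjusted p = 0.074) and against tip cells drawn by their own gate only. The calls of Klf2 and Fos ended in the same 2 alternatives. Over the alternatives that kept both libraries and the block, the lowest log2 change was 0.44 for Klf4, 0.39 for Klf2 and 0.43 for Fos. Klf2 did not pass without library 1 or 2 of the Lrat/Col13a1 cells or library 1 of the tip cells (adjusted p = 0.086, 0.21 and 0.14), nor Fos without library 1 of the Lrat/Col13a1 cells or either of the tip cells (0.14, 0.067 and 0.14), and Slc9a3r2 and Klf6 passed in none of the 4 (up to 0.33 and 0.50).

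Of 25 tested vein genes, 5 rose and 1 fell against tip cells (median 0.62), and 0 rose and 2 fell against Car4 cells (median 0.02, or −0.02 with genes at 0 in a class set to their bound). Of all genes, 1.87% passed against tip cells and 2.01% against Car4 cells. Apoe, apolipoprotein E, had 240 and 239 CPM in Lrat/Col13a1 cells, against 55.4 and 88.1 CPM in tip cells and 274 and 396 CPM in Car4 cells, with a log2 change against tip cells of 1.70 ± 0.19 (edgeR adjusted p = 0.00096), and passed in each alternative that gave a value. Vwf, von Willebrand factor, had 110 and 51.7 CPM, against 15.3 and 17.6 CPM in tip cells (2.14 ± 0.35, edgeR adjusted p = 0.0068). Vein-gated cells had 1166 and 761 CPM of Vwf. Prcp, a lysosomal carboxypeptidase, had 334 and 328 CPM, against 151 and 175 CPM (1.02 ± 0.16, edgeR adjusted p = 0.0053). Entpd1, the ectonucleotidase CD39, had 123 and 126 CPM, against 40.2 and 55.6 CPM (1.32 ± 0.24, edgeR adjusted p = 0.012) and 350 and 229 CPM in vein-gated cells. None of these 3 passed in every fit without 1 library, the largest edgeR adjusted p being 0.091 for Vwf without library 1 of the tip cells, 0.096 for Prcp without library 1 and 0.21 for Entpd1 without library 2 of the Lrat/Col13a1 cells. Of 14 tested solute carrier genes, 4 rose and 1 fell against tip cells (median 0.11), and of 18 fatty acid and glycerol genes, 2 rose and 2 fell (median 0.31). The falls were Slc12a2, a sodium, potassium and chloride cotransporter, with 15.5 and 22.8 CPM against 74.6 and 47.3 CPM (−1.53 ± 0.34, edgeR adjusted p = 0.030), Tcf15 (−1.54 ± 0.32, adjusted p = 0.023) and Fabp4 (−0.75 ± 0.18, adjusted p = 0.046). Without 1 library these reached edgeR adjusted p = 0.31 (library 1 of the Lrat/Col13a1 cells) for Slc12a2, which passed in none of the 4 fits, and 0.45 and 0.56 (library 2 of the tip cells) for Tcf15 and Fabp4. Both also did not pass without library 1 of the Lrat/Col13a1 cells (edgeR adjusted p = 0.34 and 0.53), nor Tcf15 without their library 2 (0.058). Slc6a6, the taurine transporter, had 107 and 122 CPM in Lrat/Col13a1 cells, against 11.5 and 20.4 CPM in tip cells and 78.0 and 219 CPM in Car4 cells (2.73 ± 0.44 against tip cells, edgeR adjusted p = 0.0059). Artery-gated cells had 954 and 658 CPM of Slc6a6. Chp2, a calcineurin-like regulator of sodium-proton exchange, had 65.8 and 75.4 CPM, against 7.65 and 10.2 CPM in tip cells (2.91 ± 0.37, edgeR adjusted p = 0.0018), and passed in each alternative that gave a value. Vein-gated cells had 300 and 168 CPM of Chp2. Pltp, phospholipid transfer protein, had 50.4 and 80.7 CPM, against 17.2 and 22.3 CPM in tip cells (1.74 ± 0.31, edgeR adjusted p = 0.0094). Slc6a6 and Pltp passed in 1 of the 4 fits without 1 library (largest adjusted p = 0.095 and 0.27, without library 2 of the Lrat/Col13a1 cells).

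Interferon genes rose in part. Of 23 tested, 4 rose and 0 fell against tip cells (1.87% of all genes passed), with a median of 0.30. None passed against Car4 cells (2.01% of all genes passed), with a median of −0.16. Irf1, an interferon-induced transcription factor, had 117 and 302 CPM in Lrat/Col13a1 cells, against 57.4 and 156 CPM in tip cells, and Iigp1, an interferon-inducible GTPase, had 222 and 222 CPM against 101 and 83.5 CPM (log2 changes 0.98 ± 0.19 and 1.31 ± 0.25, edgeR adjusted p = 0.013 for both). The other 2, Gbp4 and Gbp7, belong to a family of similar copies, and their counts are uncertain. Library 2 of the tip cells overlapped library 1 of the Lrat/Col13a1 cells for Irf1. Irf1 passed in none of the 4 fits without 1 library (edgeR adjusted p up to 0.27 without library 2 of the tip cells) nor without the block (0.77), and Iigp1 not without library 1 or 2 of the Lrat/Col13a1 cells or library 2 of the tip cells (0.15, 0.13 and 0.33).

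Among falls against tip cells were markers of other cells. Abcc9, the partner of Kcnj8 in a potassium channel of pericytes, had 2 UMIs in Lrat/Col13a1 cells and 30 in tip cells, a ratio of tip to Lrat/Col13a1 cells of 17.9 with a counting interval of 4.55 to 155. Its call (edgeR adjusted p = 0.033) ended in each of the 4 fits without 1 library (0.13 to 0.23). Kcnj8, a pericyte potassium channel subunit gene, had 1.29 and 3.51 CPM, against 26.8 and 25.04 CPM (−3.24 ± 0.75, edgeR adjusted p = 0.038), beside a list of 13 pericyte markers that summed to 93.5 and 122 CPM in Lrat/Col13a1 cells and 227 and 292 CPM in tip cells. The part of pericyte RNA in these falls was not tested. Its call ended in each of the 4 fits without 1 library (edgeR adjusted p = 0.15 to 0.31). Hbb-bt, a beta globin gene with near-identical copies, had 6.46 and 57.0 CPM, against 7.65 and 1054 CPM. Its call (edgeR adjusted p = 0.023) turned to a change of 1.44 on the log2 scale without library 2 of the tip cells (adjusted p = 0.77), and ended without library 1 or 2 of the Lrat/Col13a1 cells (0.17 and 0.51). S100a4, known from fibroblasts and immune cells, had 2 UMIs in Lrat/Col13a1 cells and 29 in tip cells, a ratio of tip to Lrat/Col13a1 cells of 17.3 with a counting interval of 4.39 to 150. It turned to a log2 change of 2.96 without pericyte-marker cells (edgeR adjusted p = 0.64), and its call (adjusted p = 0.022) ended without library 1 or 2 of the Lrat/Col13a1 cells (0.16 and 0.30) or library 2 of the tip cells (0.43).

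The antibody tags took no part in the choice of cells. They measure surface protein in the same cells by counts of a 15-base tag, shown in lower case as deposited, with no part capitalised.
ICAM1: ataaccgacacagtg
VCAM1: cgttcctacctacct
CXCR4: gtcgtggtgttgttc
VEGFR2: ataagagcccaccat
CD45: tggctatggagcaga
IgG2a isotype control: aagtcaggttcgttt
IgG2b isotype control: gattcttgacgacct
Of the Lrat/Col13a1 cells, 73 of 73 and 128 of 129 had tag counts. With 2 libraries a class, an exact permutation test that ignores the pairing by library cannot go below p = 0.333, and a paired one has fewer arrangements. Tags are therefore given without a test.

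CXCR4 protein differed as its mRNA did. It averaged 15.4 and 13.5 tag counts per cell in Lrat/Col13a1 cells of libraries 1 and 2, against 63.5 and 55.0 in tip cells and 13.8 and 14.1 in Car4 cells. Tip cells were thus 4.12-fold and 4.07-fold higher than Lrat/Col13a1 cells, and Car4 cells were level with them. Artery-gated cells had 45.5 and 41.4 and vein-gated cells 2.11 and 3.52. ICAM1, an adhesion receptor for leukocytes, averaged 134 and 150 tag counts in Lrat/Col13a1 cells, against 103 and 103 in Car4 cells and 104 and 139 in tip cells. Vein-gated cells had 288 and 347 and artery-gated cells 70.9 and 91.0. For ICAM1 the Lrat/Col13a1 cells were above Car4 cells in both libraries, while library 2 of the tip cells lay above library 1 of the Lrat/Col13a1 cells. Icam1 mRNA had 343 and 1018 CPM in Lrat/Col13a1 cells, 113 and 979 CPM in Car4 cells and 228 and 596 CPM in tip cells, far higher in library 2 in each class, and passed in neither comparison (edgeR adjusted p = 0.34 and 0.21). VEGFR2 averaged 3.71 and 4.21 tag counts, against 5.87 and 4.46 in Car4 cells and 4.54 and 7.31 in tip cells. These means were lower in Lrat/Col13a1 cells in both libraries, by between 1.06-fold and 1.74-fold. In library 2 the median was 3 in both Lrat/Col13a1 and Car4 cells. The IgG2a isotype control gave 1.01 and 1.69 tag counts in Lrat/Col13a1 cells, 2.40 and 3.78 in Car4 cells and 0.680 and 2.22 in tip cells. Per count of both isotype controls together, VEGFR2 was 2.91 and 2.09 in Lrat/Col13a1 cells. By that measure it was lower in Car4 cells (2.22 and 1.01) and higher in tip cells (5.28 and 2.68). The part of the IgG2a control in the VEGFR2 values was not tested. VCAM1 and CD45 averaged 1.44 and 1.86 and 1.85 and 1.67 in Lrat/Col13a1 cells, near that control.

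**Figure D5:**
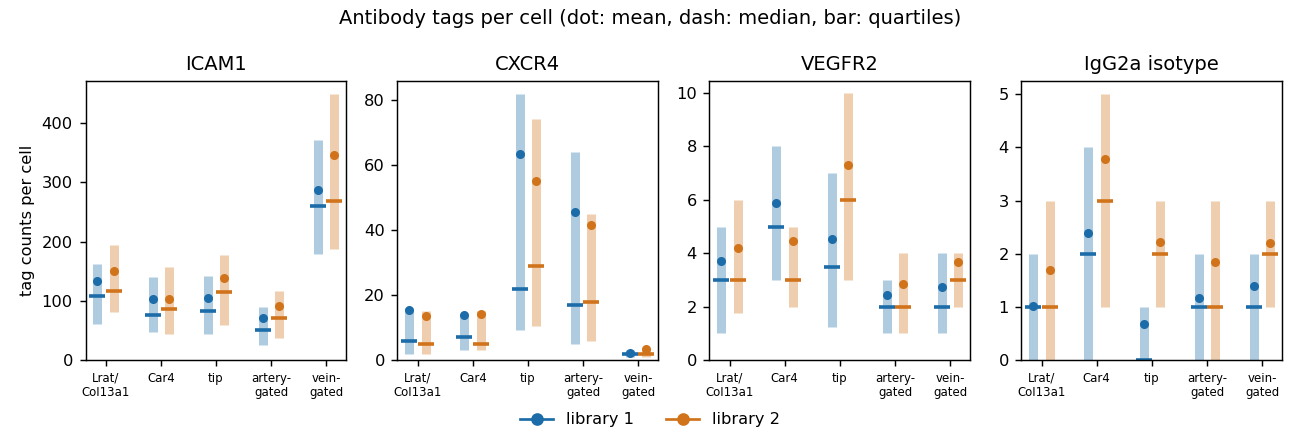
Tag counts per cell (y axes, from 0) of 3 antibodies and 1 isotype control for the 5 classes (x axes) in library 1 (blue) and library 2 (orange); dots are means, dashes medians and bars the quartiles over cells. CXCR4 means are 55.0 or more in tip cells and 15.4 or less in Lrat/Col13a1 and Car4 cells, and ICAM1 is highest in vein-gated cells.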

How the data were processed

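The mRNA matrices hold deposited raw UMI counts per gene and cell, which are the authors' Cell Ranger output (version 3.0.2 in the file headers) against mm10, a build listed by the submitters' processing notes beside Seurat 3.0.2. The antibody matrices hold deposited tag counts per antibody and barcode, and no label or header states if they are UMIs or reads, or how barcodes were filtered earlier.

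The members, gene lists and tests were chosen with earlier results of these data known. Gates were applied to raw UMIs, and UMIs were summed per class and library (10 sums of 5 classes). Sums were tested with edgeR 4.0.16 in R 4.3.3 (TMM scaling, filterByExpr, quasi-likelihood test, class and library as terms, 4 residual degrees of freedom), with Benjamini-Hochberg adjustment over 7961 genes and a threshold of 0.05. Gate genes and markers (21) were left out. The library is a block because all classes of a library share that library. Deviations of the classes from their means correlated between 0.08 and 0.28 within a library over 6657 genes. The SE is the log2 change over the square root of F. Genes named are, for each comparison, the 10 largest called rises and falls (mean log2 CPM 5 or more, libraries alike in sign), up to 4 called members of each list, retinoid genes, and genes of the tagged proteins. No doublet caller was run and free RNA was not corrected. Cells with UMIs of both Xist and Y-linked genes were 2 of 73 and 0 of 129 members. Leaving out the deepest 5% of cells was an alternative. The lymphatic gene Ccl21a, which these cells should lack, had a UMI in 6.85% and 10.9% of members. Tags were matched by barcode within the same replicate number. The fits were tested on simulated data. The results of 1 gene are not reported here, and it is left out of the gene lists and figures.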

Additional observations from a re-analysis of the deposited data

Results flagged for a closer look

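Counts that no comparison used were present in the antibody libraries. They held 23891 tag counts in library 1 (7.91% of all its tag counts) and 60577 in library 2 (11.5%) that matched none of the 7 antibodies. Any such count lies above the limit that a count of 0 allows, so the comparison with 0 does not separate a signal from errors in reading tags, which was not tested. The counts cannot be assigned to a protein.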

How the results depend on the processing

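Of 53 named changes against Car4 cells, 15 kept their direction and their call in every alternative that gave an adjusted p. Against tip cells it was 5 of 57. Leaving out 1 library of either class gave 27 to 165 calls against Car4 cells (160 with all) and 21 to 42 against tip cells (149 with all), with 1 sum left in that class, whose spread is then taken from the other classes. Without the replicate block 78 and 37 genes passed, in place of 160 and 149. Against Car4 and tip cells, 364 and 352 passed with no filter on low counts, 93 and 74 with DESeq2, 74 and 66 with cells thinned to 4000 UMIs, and 432 and 453 with comparison classes drawn by their own gate only. Against tip cells alone, 255 passed with gates per 10000 UMIs and 260 with comparison cells under 3 Lrat and Col13a1 UMIs. Between members with both genes and with Lrat only, 22 passed in place of 0 with no filter on low counts. The causes were not tested.

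The share of members, 5.30% in the gate used, was 7.47% at 2 UMIs, 3.04% at 5 UMIs and 6.39% with gates per 10000 UMIs. The log2 ratio of ICAM1 tags to Car4 cells was 0.47, against 0.14 as a share of the antibody counts and 0.82 as a centred log ratio difference, and that to tip cells was 0.23, against 0.46 and 0.70. The CXCR4 ratio to tip cells was −2.03, against −2.21 by medians, −1.81 by shares and −1.55 by the centred log ratio. The CXCR4 ratio to Car4 cells, 0.05, changed sign by medians (−0.11) and shares (−0.28). The VEGFR2 ratio to tip cells was −0.54, against −0.13 by the centred log ratio, and that to Car4 cells was −0.37, against −0.02.

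The changes of 4 genes reversed. Against Car4 cells, Gkn3 ranged between −8.00 and 2.30 when 1 library of either class was left out (2.30 without library 1 of the Car4 cells) and was 0.00 in library 2 alone. Acta2 was 2.02 without pericyte-marker cells, between −10.09 and 5.19 when 1 library of either class was left out (5.19 without library 1 of the Car4 cells) and 4.07 in library 2 alone. Against tip cells, S100a4 was 2.96 without pericyte-marker cells and Hbb-bt was between −4.56 and 1.44 when 1 library of either class was left out (1.44 without library 2 of the tip cells). The alternatives without pericyte-marker cells, without haemoglobin cells (186 and 181 calls) and between members with both genes and Lrat only were chosen after seeing the data. With 1000 genes and 5% mitochondrial UMIs the Car4 cells of library 2 fell to 13, so that no value against them was had. The comparison of members with Lrat only and Col13a1 only was not run. Members hold 748378 and 1147514 UMIs in all, so that genes with a few UMIs rest on counting error.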
